A study of Mus musculus with 7 samples.

Results

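The Zfp genes encode zinc finger proteins, most of them nuclear proteins that bind DNA through repeated fingers in which cysteine and histidine residues hold a zinc ion. Genes were taken as members when the deposited table of the study called them protein-coding and their symbol was Zfp followed by a digit, which gave 152 of 7091 listed genes (152 of 6450 protein-coding ones). The table holds only genes with the authors' adjusted p-value under 0.05 (largest 0.04995), so the members are the Zfp genes that the authors had already called different in either direction. The GENCODE annotation of the same genome build has 394 protein-coding Zfp genes, of which these 152 are 38.6%, and the remainder were not analysed here.

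The samples were epidermis of 7 mice, separated from skin whose hair follicles were at rest (telogen) and profiled by bulk RNA sequencing. The 4 KA mice (K14-CreERT;ABCA12-cKO) carried a conditional allele of Abca12, a lipid transporter gene needed for the skin barrier, and a tamoxifen-activated recombinase driven by the keratin 14 promoter of basal keratinocytes. The 3 controls (ABCA12-c/c) carried the conditional allele without CreERT. Both groups received tamoxifen at 8 weeks of age, 1 mg per 40 g of body weight intraperitoneally on 3 consecutive days, and RNA was taken 2 weeks later, so active recombinase is present in 1 group only and its presence cannot be told apart from the loss of Abca12. KA 1 and KA 2 and control 2 were male, and KA 3 and KA 4 and controls 1 and 3 were female; each library is a separate animal by its number. The row of Abca12 itself was not analysed here.

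The largest class of these proteins carries a KRAB domain ahead of the fingers. KRAB zinc finger proteins are known to bring the corepressor Trim28 and, with it, the histone methyltransferase Setdb1 to particular DNA sequences, above all to retroelements, where histone methylation and DNA methylation then silence transcription. Their genes lie in clusters that arose by repeated tandem duplication, and neighbours often resemble each other closely. Other Zfp symbols belong to unrelated proteins, among them the CCCH family of Zfp36, whose members bind AU-rich messenger RNAs and speed their decay.

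By the coding regions of GENCODE, 101 of the 152 members carried a KRAB domain and 51 did not. Members had 0 to 30 C2H2 fingers (median 11), with a median of 12 in KRAB members and 7 in the others, and 5 members had no match to the C2H2 pattern. The repeat unit is shown here because members share it and it can make reads hard to assign. An 18-base stretch, which spans the second histidine codon of one finger and the linker to the next, occurred 60 times in the coding regions of 30 of the 152 members, 29 of them KRAB genes. It was the stretch of that length found in the largest number of members. It is printed alone and then within 1 finger repeat of 84 coding bases from Zfp493 (coding bases 331 to 414, chromosome 13 cluster) and from Zfp40 (coding bases 1261 to 1344, chromosome 17 cluster), with the codons of the paired cysteines and histidines in capitals.
shared stretch: tcatactggagagaaacc
Zfp493 finger: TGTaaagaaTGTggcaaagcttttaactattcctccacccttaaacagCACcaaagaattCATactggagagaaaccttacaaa
Zfp40 finger: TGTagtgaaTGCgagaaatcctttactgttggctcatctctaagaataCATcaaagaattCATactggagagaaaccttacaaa

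Both repeats end in the same run of bases from the codon after the first histidine onward. Before it they differ, also between the second cysteine and the first histidine, the part of a finger that contacts DNA. Reads that fall in such shared stretches can be assigned to the wrong gene or to none. Of the transcript sequence of each member cut into overlapping 50-base words, less than 5% was shared with any other gene in 112 members and at least 20% in 22 members.

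Nearly all listed Zfp genes were lower in KA epidermis. By edgeR's quasi-likelihood test, with p-values adjusted over all 6761 genes that entered it, 146 of the 152 members (96.1%) fell, 3 rose and 3 did not pass the adjusted threshold of 0.05. Because the table was selected on these libraries, 91.5% of all genes tested passed in either direction, 47.5% lower and 44% higher. What distinguishes the members' count is thus its direction and not that they passed. The normalization factors, the fitted spread and the adjustment also rest on called genes only. The adjusted p-values given here are therefore smaller than over the authors' 19407 genes. Adjusted over those, 144 members were lower, beside 46.9% of all genes tested, and Zfp65, for example, went from 0.0127 to 0.0365. The median log2 fold change of the members was -0.97 (interquartile range -1.22 to -0.74, full range -2.47 to 1.16), beside 0.22 over all genes tested and 0.27 over the other protein-coding genes. A fall of at least 1 on the log2 scale was found in 72 members (47.4%), against 24.6% of all genes tested. The authors' deposited table gave 146 members lower and 6 higher, against 47.4% of all its genes lower.

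The listed genes were also counted against all annotated genes, listed or not. Of the 394 annotated protein-coding Zfp genes, 37.1% were listed as lower in the authors' deposited table and 1.52% as higher. Of the other 21557 annotated protein-coding genes, 13.1% were listed as lower and 16.1% as higher. Other zinc finger families leaned the same way: all 9 listed Zscan and Zkscan genes fell (median log2 fold change -0.88), and 11 of 14 listed Zbtb genes fell and 1 rose (median -0.90, leaving out Zbtb8os, which is named for its position). Of 45 further genes that the table assigns to the zf-C2H2 family, 38 fell and 7 rose (median -0.99). Of 228 tested genes of the table's other transcription factor families, 145 fell and 74 rose (median -0.63). The difference between these families and the Zfp genes was not tested.

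**Figure D1:**
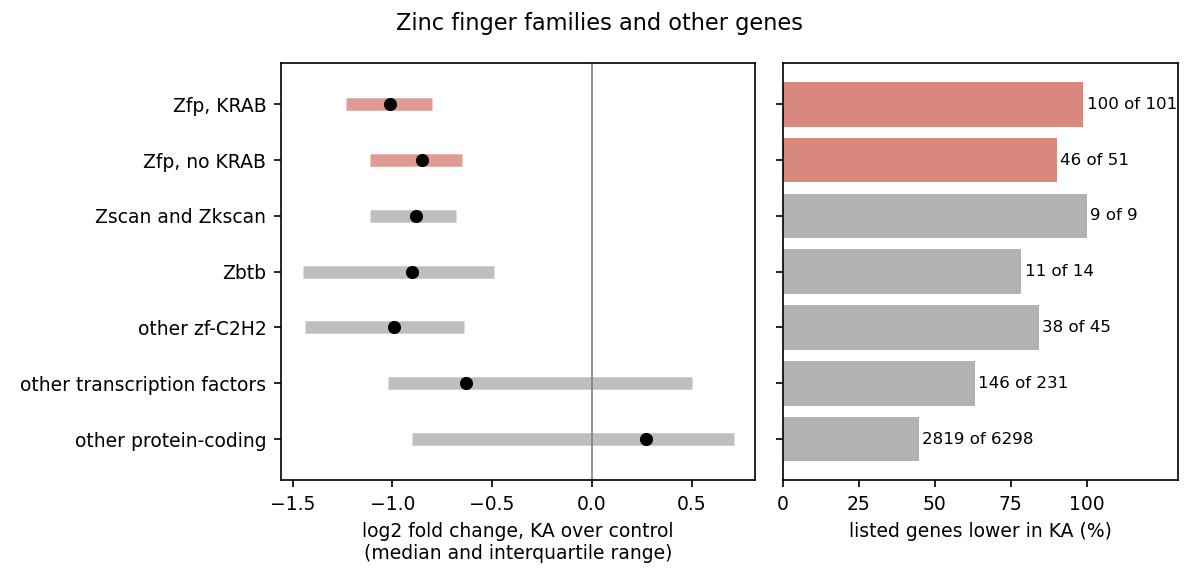
Left, median log2 fold change of KA over control (point) and interquartile range (bar) in each family; right, percent of listed genes that were lower in KA, with the counts. The medians of all 5 zinc finger groups lie between -1.01 (Zfp with KRAB) and -0.85 (Zfp without KRAB), and that of the other protein-coding genes lies at 0.27.

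Each KA library was lower than each control for most members. Normalized reads, which are counts divided by 1 size factor a library, summed over the 152 members to 84142, 76522 and 70210 in controls 1, 2 and 3. In KA 1, 2, 3 and 4 they summed to 43671, 44535, 49404 and 45951, so the groups did not overlap. The Zfp36 family gives a large part of these sums, and without its 3 members they were 55647, 52646 and 49447 in the controls and 31080, 32258, 36400 and 33816 in KA.

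The members below all 3 controls numbered 144 in KA 1, 141 in KA 2, 143 in KA 3 and 142 in KA 4, and the members above all 3 controls numbered 6 in each KA library. The groups did not overlap in 140 of 152 members (92.1%), beside 93.5% of all genes tested, a share near the background of this selected table. The 12 members with overlap were Zfp108, Zfp169, Zfp354c, Zfp61, Zfp65, Zfp764, Zfp809, Zfp81, Zfp871, Zfp955a, Zfp955b and Zfp983, all KRAB genes. Within the KA group the fall was deepest in KA 1, which was the lowest of the 4 in 63 members, and shallowest in KA 3, which was the highest in 76. Among the controls, control 3 lay lowest, with a median of -0.14 on the log2 scale against the control mean, and control 1 highest, at 0.08.

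**Figure D2:**
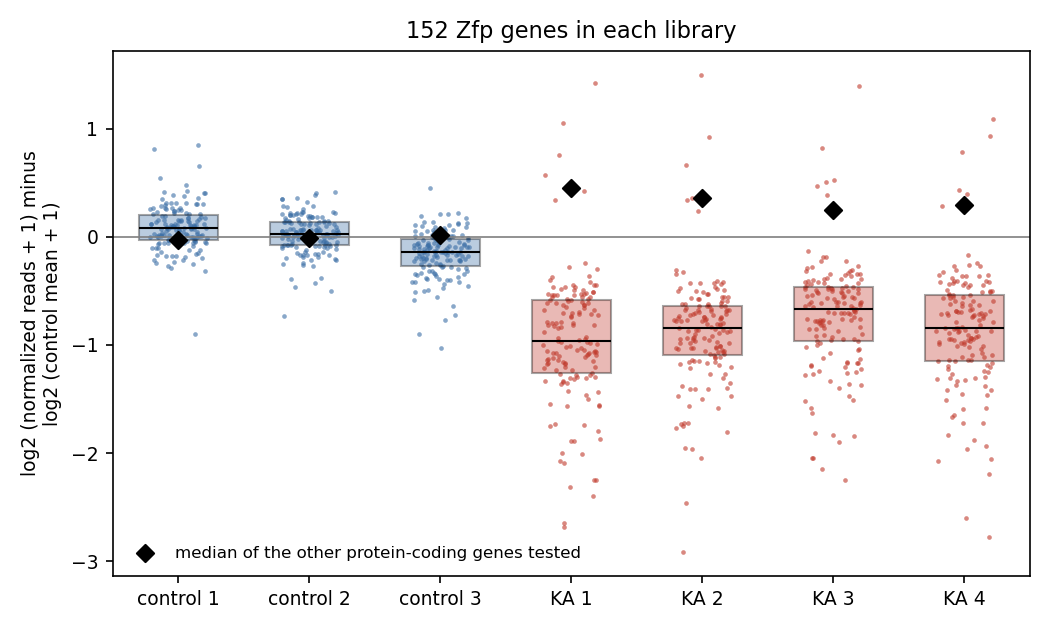
Points are the 152 Zfp genes in each library, as log2 (normalized reads + 1) minus log2 (control mean + 1), with the box over the interquartile range, the line at their median and the diamond at the median of the other protein-coding genes tested. The KA medians lie at -0.97, -0.85, -0.67 and -0.84, while the diamonds of the same libraries lie between 0.25 and 0.45.

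Transcripts that mark cell types and cell division also differed between the groups in these bulk libraries, in which fewer cells of a type and less RNA per cell cannot be told apart. Listed keratinocyte markers (Krt5, Krt14 and Krt1, 3 of 6) all rose, with summed normalized reads of 375357 to 428053 in controls and of 949086 to 1034946 in KA. Krt15 was taken as a marker of the hair follicle bulge. It had 148772, 179661 and 196411 normalized reads in the 3 controls and 18090, 39308, 70040 and 32720 in the KA mice. Its control mean of 174948 lay above that of the keratinocyte marker Krt14 (116254), so which cells its reads came from is uncertain. Of the bulge markers, 3 of 5 were listed, with Krt15 and Lgr5 lower, and the groups overlapped in Lgr5. The third, Sox9, went the other way without passing, with 1048, 1022 and 862 normalized reads in controls and 1451, 1578, 1533 and 976 in KA (0.36 ± 0.17, adjusted p = 0.062; 0.50 with the authors' size factors). The 5 proliferation markers (Mki67, Top2a, Ccnb1, Cdk1 and Aurka) all rose, with summed reads of 2452 to 2936 in controls and of 6127 to 11746 in KA.

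Leukocyte markers were mixed, with 7 of 10 listed, 3 lower (Cd3e, Cd3g and Cd68) and 3 higher (Cd207, H2-Ab1 and Lyz2), and a sum of 7323 to 9806 in controls and 12284 to 18350 in KA. Of the endothelial markers 1 of 4 was listed, with Pecam1 at 11.4 to 17.6 in controls and 34.5 to 55.4 in KA, and of the adipocyte markers 2 of 4, with sums of 18 to 121 and 207 to 338, all of them higher in KA. Melanocyte markers Dct and Mitf (2 of 5 listed) fell, from sums of 328 to 551 to sums of 247 to 335. None of 6 fibroblast and 4 muscle markers was among the listed genes, so their levels were not analysed here. The part of these markers in the fall of the Zfp genes was not tested.

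The fall was next set beside that of genes of the same length and level. Long genes and genes with few reads were lower in KA more often across the whole table: of the other protein-coding genes, 26.9% were lower in the shortest of 5 length classes of equal size and 65.1% in the longest, and 53.2% in the class with the fewest normalized reads against 33.2% in the class with the most. Zfp genes had few reads, a median of 159 mean normalized reads a gene, against 567 for the other protein-coding genes, and 66 of them lay in the lowest of the 5 classes by level. By length, lower members were 7 of 7, 29 of 30, 39 of 39, 34 of 38 and 37 of 38 from the shortest to the longest class. By level they were 65 of 66, 51 of 54, 19 of 20, 6 of 7 and 5 of 5 from the lowest to the highest class.

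With the 5 classes of length and the 5 of level combined, 20 of the 25 classes held members. Other genes of those classes, weighted by how many members each class held, were lower in 55.4% of cases, against 96.1% of the members. Their weighted median log2 fold change was -0.39, against -0.97. In 19 of the 20 classes the share lower was higher among Zfp genes than among the other genes of the class.

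**Figure D3:**
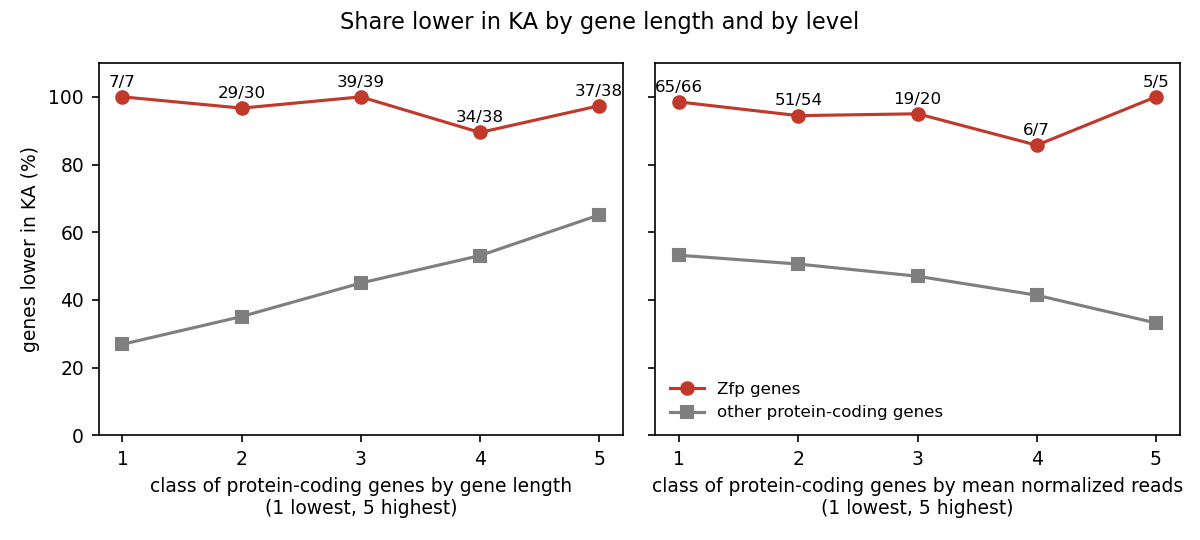
Percent of genes lower in KA in 5 classes of the protein-coding genes by gene length (left) and by mean normalized reads (right), for Zfp genes (circles, with counts) and other protein-coding genes (squares). The squares run from 26.9% to 65.1% with length and from 53.2% to 33.2% with level, while the circles lie above the squares in every class.

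Among the members themselves, KRAB genes fell in 100 of 101 cases, with none higher, and had a median log2 fold change of -1.01. Members without KRAB fell in 46 of 51 cases, with 3 higher, and had a median of -0.85; the difference between the classes was not tested. The median was -0.81 for 0 to 4 fingers, -0.85 for 5 to 9, -1.05 for 10 to 14 and -1.10 for 15 or more. These classes also differed in level, with median normalized reads of 505, 265, 121 and 120 in the same order. KRAB members had a median of 121 and members without KRAB 375. The part of level in these differences was not tested. Across the 152 members Spearman's rho of the log2 fold change was 0.54 with mean level, -0.23 with finger number, 0.15 with gene length and -0.11 with the share of shared 50-base words; members are not independent replicates. A gene with few reads had to change more to enter the table, so the relation with level is in part fixed by the selection. Members with under 5% of shared words had a median of -0.92 (107 of 112 lower), and those with at least 20% had -1.03 (22 of 22 lower). The 72 members that overlap another annotated gene had a median of -0.88 (69 lower), and the 80 that overlap none had -1.04 (77 lower).

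Several members act in silencing at retroelements and imprinted genes. Zfp57 (chromosome 17, 37001163 to 37010635, GRCm38), a KRAB protein that keeps DNA methylation at imprinted regions through early development, had the deepest fall of the 152. It had 148, 90.7 and 119 normalized reads in the controls and 21.8, 28.2, 28.2 and 16.6 in the KA mice. All 4 KA mice lay far below the lowest control, and the log2 fold change was -2.47 ± 0.29 (SE), with an adjusted p of 7.85e-05. Zfp445 (chromosome 9, 122844529 to 122866006), the other KRAB protein known for imprint maintenance, had 1431, 1195 and 1095 in controls and 855, 901, 900 and 961 in KA. Its fall was shallow beside that of Zfp57, at -0.59 ± 0.13 (adjusted p = 0.0025), on a level of 141 mean normalized reads per kb of gene length against 17.1. With a correction for gene length Zfp445 was -0.26 (adjusted p = 0.0459), and for GC content as well -0.31 (adjusted p = 0.0245).

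Zfp809 (chromosome 9, 22225714 to 22243354) recognises the primer binding site of certain retroviruses and endogenous retroelements. It had 239, 178 and 119 normalized reads in controls and 119, 126, 104 and 77.9 in KA, so control 3 lay within the KA range. Its log2 fold change was -0.88 ± 0.27 (adjusted p = 0.0103), and without control 1 it was -0.56 (adjusted p = 0.0791), no longer past the threshold. Zfp932 (chromosome 5, 109996521 to 110010411), which binds endogenous retroviruses together with its near copy Gm15446, had 435, 443 and 425 in controls and 188, 219, 295 and 200 in KA, without overlap (-1.08 ± 0.19, adjusted p = 0.000574). It shared 45.2% of its 50-base words with other genes, most of them with Gm15446, so how reads were divided between the pair is uncertain. Zfp568, Zfp708 and Zfp819 of the same role list were not analysed here.

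Transcripts of the partners of KRAB factors were called in both directions. Of 36 genes on a list of KRAB partners and heterochromatin enzymes, 9 were listed, of which 3 fell, 2 rose and 4 did not pass, beside 47.5% of all genes tested lower and 44% higher. Their median log2 fold change was 0.19 beside 0.22 over all genes tested, and their difference from the Zfp genes was not tested. Trim28, the corepressor itself, had 3757, 3751 and 4084 normalized reads in controls and 5358, 4742, 4512 and 4712 in KA. All KA values were above the controls, but the log2 fold change of 0.19 ± 0.10 did not pass (adjusted p = 0.1); with the authors' size factors it was 0.32 (adjusted p = 0.0186). Hdac1 (0.24), Dnmt1 (0.25) and Kdm1a (0.18), a histone deacetylase, the maintenance DNA methyltransferase and a histone demethylase, did not pass either, and Setdb1 was not analysed here.

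Fam208a, the Tasor subunit of the HUSH complex that silences retroelements and transgenes, had 861, 795 and 680 normalized reads in controls and 276, 344, 358 and 299 in KA. Its fall of -1.42 ± 0.15 (adjusted p = 5.3e-05) was the deepest of the partner list and left every KA mouse under the lowest control; with a correction for gene length it was -0.90, and for GC content as well -0.82, both past the threshold. Mphosph8, the HUSH subunit that reads histone methylation, had 287, 269 and 215 in controls and 208, 184, 165 and 197 in KA (-0.59 ± 0.18, adjusted p = 0.00976; -0.45 and 0.0554 without control 1). Atf7ip, a cofactor of Setdb1, had 2441, 2073 and 2049 in controls and 1494, 1577, 1482 and 1838 in KA (-0.59 ± 0.13, adjusted p = 0.00221), a fall that became 0.06 with a correction for gene length.

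Suv39h1, a histone methyltransferase of constitutive heterochromatin, had 273, 294 and 375 normalized reads in controls and 637, 519, 379 and 564 in KA (0.60 ± 0.18, adjusted p = 0.00991). Uhrf1, which brings Dnmt1 to newly copied DNA, had 860, 995 and 1092 in controls and 1897, 1498, 1059 and 1858 in KA (0.55 ± 0.19, adjusted p = 0.017), and its groups overlapped at KA 3. Without control 1 Uhrf1 missed the threshold (adjusted p = 0.0533), and in females alone neither rise passed. Uhrf1 is known as a gene of dividing cells, and the proliferation markers given above rose as well; their part in these rises was not tested. The count of partner genes that rose was 2 here, 6 with the authors' size factors or with a correction for gene length, and 0 in females alone.

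Nearly all clustered members fell, as nearly all members did. Members less than 1 Mb from the next one were joined, which gave 11 clusters of at least 4 listed members with 70 members in all, of which 69 fell and 1 (Zfp668) did not pass. Of the 82 members outside, 77 fell and 3 rose. The median log2 fold change was -1.03 inside the clusters and -0.91 outside. KRAB genes were 61 of the 70 members inside and 40 of the 82 outside. The part of KRAB in this difference was not tested. Within the same ranges 23 other protein-coding genes were listed, and 13 of them were lower. These others were set apart by symbol alone, so zinc finger genes under other names were not removed. Gm10226 and Gm7072 in a chromosome 17 cluster were among them, both lower. Zfp51 of that cluster shared more 50-base words with Gm10226 than with any other gene.

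A cluster on chromosome 13 (67038596 to 67827002) held 14 listed members, all KRAB genes, of 23 annotated Zfp genes, and all 14 fell. Their log2 fold changes ran from -1.67 to -0.75 with a median of -1.18, and no other protein-coding gene of the range was listed. Zfp493 fell most, with 27.5, 41.2 and 27.3 normalized reads in controls and 15.8, 3.38, 17.8 and 6.23 in KA (-1.67 ± 0.49, adjusted p = 0.00852), few reads with a wide spread between mice. Zfp65 fell least, with 195, 195 and 125 in controls and 139, 116, 112 and 84.1 in KA (-0.75 ± 0.24, adjusted p = 0.0127), and control 3 lay below KA 1. Without control 1 or without control 2 the adjusted p of Zfp65 was 0.066 or 0.051, with the GC and length correction it was 0.0554, and in females alone it was 0.0628, against 0.0687 for Zfp493.

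A cluster of the same size on chromosome 17 (21008903 to 23193252) held 14 listed members of 21 annotated, again all KRAB genes and all lower, with a median of -1.10. Zfp40, the last member in coordinate order, fell most and had 72.9, 94.8 and 74.6 normalized reads in controls and 26.7, 23.7, 21.9 and 12.5 in KA (-2.06 ± 0.30, adjusted p = 0.000234). Zfp760 in the middle of the cluster had 171, 202 and 209 in controls and 80.1, 56.3, 76.2 and 51.9 in KA (-1.69 ± 0.22, adjusted p = 0.000118). The smallest fall was that of Zfp942, with 244, 214 and 233 in controls and 169, 131, 141 and 173 in KA (-0.72 ± 0.18, adjusted p = 0.00375), with no overlap; with a correction for GC content and gene length it was -0.37 and did not pass (adjusted p = 0.061).

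The other 9 clusters held 4 to 7 members each, and their medians lay between -1.15 and -0.79. A second cluster on chromosome 17 (32771236 to 33394641) held 7, all KRAB and all lower (median -0.86). In a cluster on chromosome 7 (24254794 to 25227507) all 4 members fell, while 3 of 9 other listed protein-coding genes were lower, and in the cluster that holds Zfp36 (chromosome 7, 27731389 to 28380253) all 4 members fell and 1 of 5 other genes was lower. On chromosome 6 (47835661 to 48623227) all 4 members and all 5 other listed genes were lower. These others were Sspo, Atp6v0e2, Krba1, Repin1 and Lrrc61, among which zinc finger or KRAB genes were not set apart.

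Zfp668 (chromosome 7, 127863047 to 127876828) was the 1 clustered member that did not fall. It had 248, 237 and 211 normalized reads in controls and 344, 293, 335 and 283 in KA, higher in all 4 KA mice, with a log2 fold change of 0.30 ± 0.16 that did not pass (adjusted p = 0.0871). Its neighbour Zfp646, whose annotated range overlaps its own on the other strand, had 1013, 782 and 666 in controls and 459, 459, 477 and 601 in KA (-0.85 ± 0.18, adjusted p = 0.0017). Whether reads were counted by strand is not given in the sources used here, so the division of reads between the pair is uncertain.

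**Figure D4:**
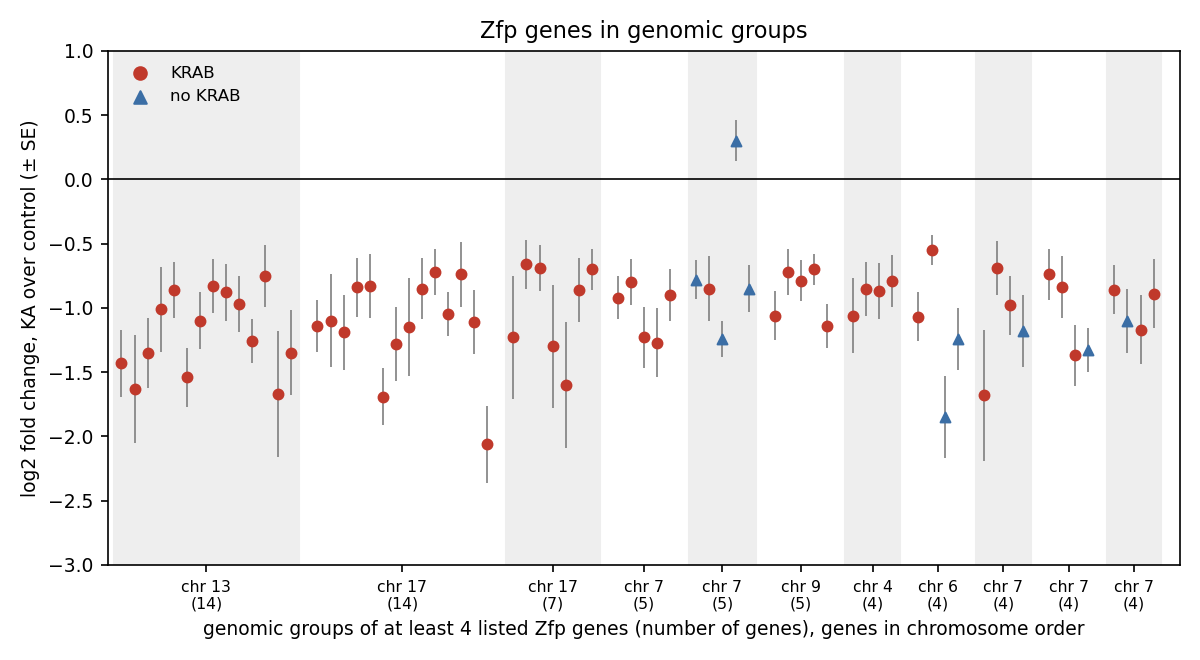
Log2 fold change of KA over control with its standard error for the 70 members of the 11 genomic clusters, in chromosome order within each cluster; circles carry KRAB and triangles do not. Of the 70 members, 69 lie below 0, and the exception is Zfp668 on chromosome 7 at 0.30.

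RefSeq promoters (the bases around the annotated gene start, GRCm38.p6) were matched by symbol for 127 of the 152 members, 122 of them lower in the authors' deposited table. Those printed were chosen by their changes: Zfp57 had the deepest fall of all, and Zfp280b rose. Zfp455 and Zfp760 had the deepest falls among the matched members of the 2 largest clusters. The promoter of Zfp36, chosen for its level, held CCGGAAG and is not printed. The part of promoter sequence in the changes was not tested. Capitals mark TATAAA in the Zfp57 promoter and CCAAT in those of Zfp760 and Zfp280b, on either strand, and the Zfp455 promoter held none of the 7 motifs searched. The ranges are chr17:37000913-37001212 for Zfp57, chr13:67194256-67194555 for Zfp455, chr17:21707491-21707790 for Zfp760 and chr10:76032362-76032661 for Zfp280b, all on the plus strand.
Zfp57 promoter: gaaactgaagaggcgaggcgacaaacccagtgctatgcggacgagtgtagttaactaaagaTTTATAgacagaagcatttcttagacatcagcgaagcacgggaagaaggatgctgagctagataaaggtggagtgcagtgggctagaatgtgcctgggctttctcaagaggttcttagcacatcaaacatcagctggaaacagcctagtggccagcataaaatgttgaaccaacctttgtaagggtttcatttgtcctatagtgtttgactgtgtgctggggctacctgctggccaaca
Zfp455 promoter: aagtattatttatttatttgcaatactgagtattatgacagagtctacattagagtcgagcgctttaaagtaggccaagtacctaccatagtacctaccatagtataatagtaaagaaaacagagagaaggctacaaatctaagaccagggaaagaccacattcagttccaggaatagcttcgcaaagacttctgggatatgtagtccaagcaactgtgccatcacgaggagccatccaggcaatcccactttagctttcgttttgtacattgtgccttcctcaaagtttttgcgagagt
Zfp760 promoter: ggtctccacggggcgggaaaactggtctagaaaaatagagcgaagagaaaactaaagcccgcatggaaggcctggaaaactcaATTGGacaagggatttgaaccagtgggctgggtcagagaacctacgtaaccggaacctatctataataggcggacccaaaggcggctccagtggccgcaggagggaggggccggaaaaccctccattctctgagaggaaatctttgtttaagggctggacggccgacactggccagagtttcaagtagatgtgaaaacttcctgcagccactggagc
Zfp280b promoter: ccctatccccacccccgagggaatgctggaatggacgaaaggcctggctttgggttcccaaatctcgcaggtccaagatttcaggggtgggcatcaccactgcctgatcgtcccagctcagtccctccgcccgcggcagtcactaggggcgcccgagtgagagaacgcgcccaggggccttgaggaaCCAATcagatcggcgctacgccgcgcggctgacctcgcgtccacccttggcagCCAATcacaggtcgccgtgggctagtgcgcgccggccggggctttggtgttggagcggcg

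CG pairs numbered 6, 6, 12 and 27 in these 300-base windows in the order printed. The median was 10 over 86 lower members with KRAB, 19.5 over 36 lower members without KRAB, 19 over 4924 other listed protein-coding genes and 7 over all 27025 RefSeq promoters. For members with several promoters the one nearest the annotated gene start was taken, and for other genes the first by coordinate. The sets compared were thus chosen by different rules. Motifs were searched as exact letters on both strands. CCGGAAG was in 18% of the 122 lower members, 15.2% of the other listed protein-coding genes and 9.09% of all promoters, and CCAAT was in 44.3%, 37.8% and 37.8%. TATAAA was in 8.2%, 8.18% and 14.1%, and AAGATGG in 9.84%, 6.6% and 6.46%. GCGCATGCG was in 3.28%, 3.09% and 1.77%, TGACGTCA in 4.1%, 2.76% and 1.78%, and TGAGTCA in 4.1%, 4.77% and 5.2%. A match in these windows describes the sequence and does not show a binding site.

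Zfp36l2 and Zfp36, of the CCCH family, had the most reads per length of all members. Zfp36l2 had 3316 mean normalized reads per kb of gene length, Zfp36 had 1272 and Zfp36l1 had 493, and beside them Zfp219 had 574 and Zfp740 had 472. Zfp36l2 (chromosome 17, 84183931 to 84187947) had 19892, 14926 and 13232 normalized reads in controls and 7499, 8318, 8995 and 9067 in KA. The KA mean of these normalized reads was 52.9% of the control mean, without overlap. The fitted log2 fold change of Zfp36l2 was -1.05 ± 0.17 (adjusted p = 0.00036), and -0.92 with the authors' size factors. Zfp36, or tristetraprolin (chromosome 7, 28376784 to 28380253), which limits inflammatory cytokine messenger RNAs, had 6360, 7276 and 5842 in controls and 3740, 2813, 2827 and 2039 in KA (-1.33 ± 0.17, adjusted p = 0.000125), the deepest fall of the 3. Zfp36l1 (chromosome 12, 80107754 to 80113013) had 2243, 1674 and 1689 in controls and 1352, 1146, 1182 and 1029 in KA (-0.81 ± 0.14, adjusted p = 0.000651). All 3 listed members of the family fell, and Zfp36l3 was not analysed here.

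Zfp219 and Zfp740, 2 C2H2 proteins without KRAB, showed small falls at high levels. Zfp219 had 3045, 3084 and 3272 normalized reads in controls and 2020, 2108, 2519 and 2118 in KA (-0.65 ± 0.12, adjusted p = 0.000834). Zfp740 had 2504, 2712 and 2854 in controls and 1953, 2176, 2361 and 2273 in KA (-0.43 ± 0.12, adjusted p = 0.00627), with every KA mouse under every control; with a correction for gene length its value was -0.23 (adjusted p = 0.0622). Other annotated genes overlap both, Arhgef40 and Tmem253 in the case of Zfp219 and Csad in that of Zfp740.

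After Zfp57, the deepest falls of the 152 were those of Zfp551 and Zfp879, both KRAB genes with few reads, which lay under the level set for naming genes and were named after their values were seen. Zfp551 had 36.9, 23.7 and 24.9 normalized reads in controls and 4.95, 7.89, 5.22 and 7.27 in KA (-2.29 ± 0.39, adjusted p = 0.000518), and Zfp879 had 9.47, 12.4 and 13.6 in controls and 0.989, 5.63, 3.13 and 2.08 in KA (-2.12 ± 0.55, adjusted p = 0.00476). Neither gene had an overlap between the groups. Other deep falls, beside Zfp40 and Zfp760 above, were in Zfp467, Zfp72 and Zfp704, which lack KRAB, and in Zfp287, which has it. Zfp467 (chromosome 6, 48427697 to 48445825), a factor without KRAB known from the choice between bone and fat fates, had 636, 492 and 435 normalized reads in controls and 82.1, 148, 246 and 157 in KA (-1.85 ± 0.32, adjusted p = 0.000669). Its KA 1 and KA 3 values were the lowest and the highest of the KA mice. Zfp704 had 555, 426 and 456 in controls and 99.9, 193, 214 and 192 in KA (-1.58 ± 0.25, adjusted p = 0.000382), in the same order of KA 1 lowest and KA 3 highest. Zfp72 had 57.8, 28.9 and 31.3 in controls and 9.89, 13.5, 15.7 and 9.34 in KA (-1.83 ± 0.39, adjusted p = 0.0018). Zfp287 had 54, 45.4 and 62.6 in controls and 11.9, 9.01, 14.6 and 32.2 in KA (-1.79 ± 0.42, adjusted p = 0.00288), where KA 4 stood above the other KA mice and still below the controls.

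Of 16 genes on the role list named sequence-specific factors outside KRAB, 4 were listed, and all 4 fell: Zfp704, Zfp516, Zfp608 and Zfp503. Lower calls were made for 96.1% of all members and 47.5% of all genes tested. By pattern Zfp516 had 10 C2H2 fingers, Zfp704 and Zfp608 had 1 each and Zfp503 had 0. The name of the list is thus uncertain for Zfp704, Zfp608 and Zfp503. Zfp516, known as a partner of Prdm16 in brown fat, had 1048, 833 and 757 normalized reads in controls and 407, 462, 516 and 446 in KA (-1.08 ± 0.16, adjusted p = 0.000247). Zfp608 had 80.5, 88.7 and 73 in controls and 38.6, 43.9, 58.5 and 48.8 in KA (-0.89 ± 0.25, adjusted p = 0.0073). Zfp503, a developmental repressor, had 1165, 1058 and 895 in controls and 720, 765, 768 and 703 in KA (-0.63 ± 0.13, adjusted p = 0.00168), a smaller fall but with no overlap. Zfp750, a regulator of terminal epidermal differentiation, was not analysed here, nor were the 3 cell cycle genes of the role list (Zfp207, Zfp365 and Zfp830).

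Members that handle RNA went in both directions. Zfp326 (chromosome 5, 105876565 to 105915818), a subunit of the DBIRD complex that links RNA polymerase II to splicing, had 585, 634 and 516 normalized reads in controls and 979, 915, 756 and 999 in KA. All 4 KA mice exceeded the controls, and it rose by 0.52 ± 0.14 on the log2 scale (adjusted p = 0.00558). Zfp638, a large nuclear protein linked to splicing and to silencing of foreign DNA, had 1010, 907 and 775 in controls and 759, 560, 650 and 746 in KA (-0.54 ± 0.15, adjusted p = 0.00689). With a correction for gene length the value of Zfp638, the longest of the named members, was 0.03 and did not pass.

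The other 2 members that rose were Zfp280b and Zfp366. Zfp280b (chromosome 10, 76032650 to 76043234) had 132, 166 and 173 normalized reads in controls and 421, 299, 278 and 334 in KA, a rise of 0.95 ± 0.19 (adjusted p = 0.00119) without overlap. Zfp366, a factor known from dendritic cells, had 9.47, 11.3 and 12 in controls and 23.7, 32.7, 30.3 and 21.8 in KA (1.16 ± 0.35, adjusted p = 0.00948), few reads in every mouse. The Langerhans cell marker Cd207 also rose, with 570, 742 and 785 in controls and 1481, 1524, 1305 and 1165 in KA (0.83 ± 0.14, adjusted p = 0.000543), and H2-Ab1 rose by 0.95; their part in the rise of Zfp366 was not tested. Zfp668 (0.30), Zfp710 (0.26, adjusted p = 0.0633) and Zfp772 (0.27, adjusted p = 0.113) were higher in the authors' deposited table and did not pass here; Zfp772 was the 1 KRAB gene among the 6 members with positive values.

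**Figure D5:**
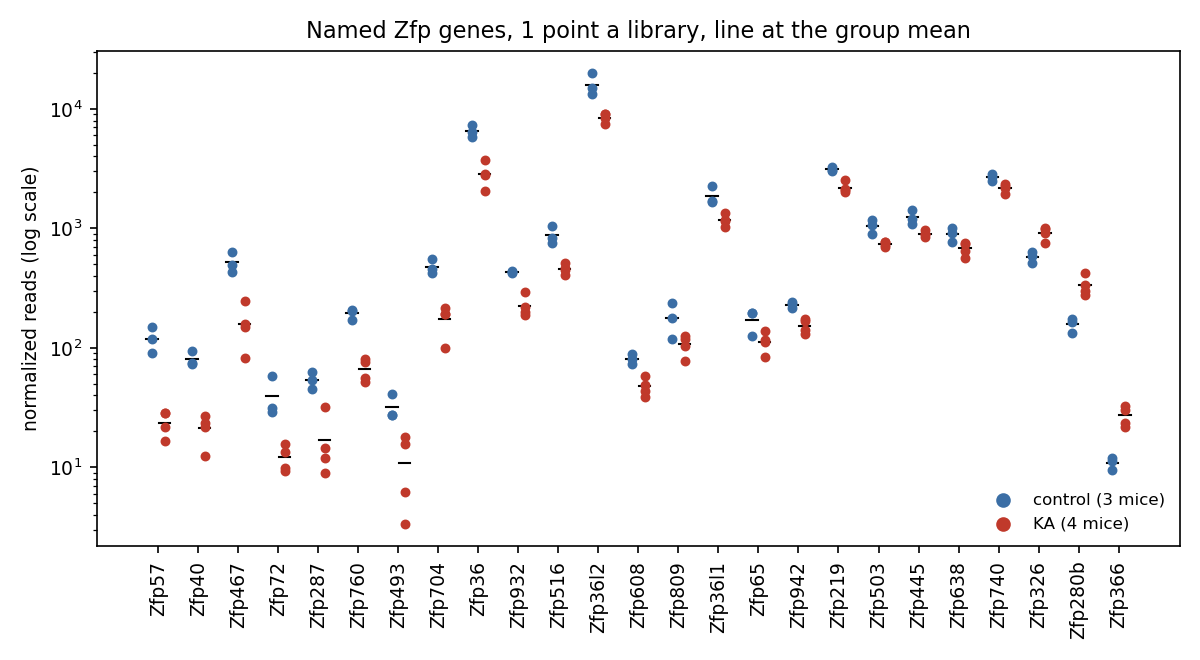
Normalized reads on a log scale of the 25 named members, with 1 point for each library (3 controls, 4 KA mice) and a line at the group mean, ordered from the deepest fall to the largest rise. The points of the groups overlap in Zfp809 and Zfp65, and the KA points lie above the controls only in Zfp326, Zfp280b and Zfp366 among the genes drawn.

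The count of 146 lower members was 81 in the 2 KA and 2 control females alone, where 53.3% of the members and 35.2% of all genes tested were called lower and 146 members again had a negative sign. The count of 3 higher members was 6 with the authors' size factors, which shift the median of all genes up by 0.134 on the log2 scale, and 5 with a correction for gene length. With the GC and length correction other named members kept their call at a changed size, Zfp219 at -0.33, Zfp503 at -0.40, Zfp516 at -0.71 and Zfp326 at 0.93, and Zfp704 was -1.04 with the length correction. In females alone Zfp366, Zfp608, Zfp638 and Zfp740 did not pass (adjusted p = 0.0656, 0.156, 0.0811 and 0.139).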

How the data were processed

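RNA was measured in 7 libraries, 4 KA and 3 control. Per the submitters' processing notes, fastp, STAR 2.6.1d, featureCounts 1.5.0-p3, DESeq2 1.40.2 and the mm10 build were used, while settings, strand and annotation are not given in the sources used here. Per the file headers, the deposited table gives the authors' raw read counts per gene, their normalized reads (a signal scale: counts divided by 1 size factor a library, 0.8876 to 1.247), their log2 fold change with its standard error, their test score, and their p-values before and after adjustment (over 19407 genes by rank). Listed reads per library (9590718 to 12761458) cover only called genes and are not depths. It held 0 columns of other samples.

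Counts as deposited were fitted with edgeR 4.0.16 in R 4.3.3 (filterByExpr by group, which left out 330 genes and kept 6761 with all 152 members; TMM factors, robust glmQLFit and glmQLFTest, Benjamini-Hochberg adjustment over genes tested, threshold 0.05). A standard error is the fitted log2 fold change divided by the root of its F statistic. The code was tested on simulated data. Values in the text are the authors' normalized reads and these log2 fold changes; a level per kb divides by the table's gene length. All members were found in GENCODE M21 (GRCm38), 147 with the same start and end. KRAB was called from GENCODE coding regions with a profile built from 157 KRAB windows (E-value 0.001), fingers by pattern; a RefSeq protein table had been planned and was not used. P-values set the difference between the groups against the spread between these mice, which the fit estimates with information shared across genes.

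The members, gene lists and tests were chosen with earlier results of these data known. Members named were those on role lists, the 8 largest called falls and rises (mean CPM of 2 or more, no overlap), the 5 with most reads per kb, and the extremes of the 2 largest clusters. This gave 25; Zfp668, Zfp646, Zfp710, Zfp772, Zfp551, Zfp879 and the members with overlap were named after their values were seen. Alternatives were RLE, upper quartile and the authors' factors, other filters, DESeq2 1.42.0, limma-voom 3.58.1, sex, run of animal numbers or sample number as a term, GC and length corrections, each library left out, females or the lower run of animal numbers alone, a fold threshold, and adjustment over 19407 genes.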

Additional observations from a re-analysis of the deposited data

How the results depend on the processing

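Of the 152 members, 146 had a negative and 6 a positive value in every fit that tested all 152 except those with a length correction (145 and 7) or a GC and length correction (144 and 8, with or without the block). The count of lower members, 146, ranged from 136 to 146 with 1 library left out. It was 124 with the GC and length correction, where 81.6% of the members and 41% of all genes tested were called lower. It was 81 in females alone and 72 with a log2 fold change of at least 1 required. The count of higher members, 3, ranged from 3 to 4 with 1 library left out. It was 6 with the authors' size factors, 5 with the length or GC and length corrections and 1 with the fold required. The median of -0.97 ranged from -1.02 to -0.85 (without control 1), and was -0.83 with the authors' size factors, -0.81 with the length and -0.76 with the GC and length correction, -0.83 in females alone and -1.12 in the lower run of animal numbers alone. Lower partner genes, 3, ranged from 2 to 3 with 1 library left out and numbered 1 with the fold required. Higher partner genes, 2 with any 1 library left out, numbered 6 with the authors' size factors and with both corrections, 4 with sex as a covariate, and 0 in females alone or with the fold required. The share of other protein-coding genes lower was 54.1% in 3 by 3 classes. Values reversed for Zfp638 (0.03 with the length and 0.07 with the GC and length correction) and Atf7ip (0.06 and 0.02); the cause was not tested. Over the 31 named genes and partners, 692 alternative values kept their call, 43 lost it in the same direction and 4, all of Trim28, gained it.

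Between same-numbered mice the deviations from the group means had correlations of -0.202, 0.148 and -0.091. Such mice also share a title letter (A, B or C). KA 4 carries C too, though the block below gave it a level of its own. What the letters stand for is not given in the sources used here, and so few values cannot show whether such mice share more. With the number as a replicate block 143 members were lower (94.1%, beside 47.1% of all genes tested) and 0 partner genes higher. With the block and the GC and length correction 95 members were lower (62.5%, beside 36.9% of all genes tested) and 5 higher. In that fit 5 partner genes were higher, the median was -0.76 and Zfp638 was 0.07. Depth limits the members of few reads most: in Zfp493, 3 to 17 counts were read in KA libraries.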
